A study of Homo sapiens with 6 samples.

Results

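The 10 genes described here form the terminal part of the human Hippo pathway in KGN cells: the kinases LATS1 and LATS2, the coactivators YAP1 and WWTR1 (the gene of TAZ), the DNA-binding partners TEAD1, TEAD2, TEAD3 and TEAD4, and the secreted target gene products CCN1 and CCN2. They were chosen by symbol, by a rule that uses no measured value, from the gene tables of 6 RNA-seq libraries, and they are 10 of the 60671 genes listed there. All 10 passed the filter on low counts and were tested. KGN is an established human granulosa cell line, genome-edited in this study to carry wt alleles of FOXL2, the forkhead factor of granulosa cells (genotype label FOXL2 WT/WT). The control group (3 libraries) received a control siRNA. The FOXL2 siRNA group (3 libraries) received the same amount, 30 pmol, of pools of 3 siRNAs against FOXL2, and RNA was taken 30 h after transfection in both groups. Each FOXL2 siRNA library came from another pool, drawn from 4 siRNAs of which 1 was in every pool, so that these libraries share a target but not an siRNA mixture. The labels do not say whether the libraries of a group came from separate cultures, and p-values measure only the spread between these libraries.

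In the Hippo pathway, the MST kinases activate LATS1 and LATS2, which phosphorylate YAP and TAZ and so keep them in the cytoplasm. Unphosphorylated YAP and TAZ enter the nucleus and act through the TEAD factors, which bind DNA themselves, on genes such as CCN1 (CYR61) and CCN2 (CTGF). Control therefore acts largely on protein phosphorylation and location, which RNA-seq does not measure. In the ovary the pathway is known for its part in follicle growth and in granulosa cell proliferation, and FOXL2 and LATS1 proteins have been described to interact. The comparison of FOXL2 siRNA with control siRNA shows whether the RNA of these pathway members differed when FOXL2 was depleted.

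The core letters bound by TEAD factors (GGAATG) and by forkhead factors (GTAAACA) were sought on both strands of the RefSeq promoter windows of GRCh38.p14, which run from 250 bases before to 50 after a start site. Windows were given for 7 of the 10 genes, the others being TEAD1, TEAD4 and CCN1. GGAATG was present in 4928 of the 35116 windows (14%) and GTAAACA in 3.42%, and the letters do not overlap each other in the stretches shown. The CCN2 window held GGAATG 3 times on the sense strand, with first bases at -169, -104 and -95 from the start site. Among all windows, 0.128% held 3 or more matches, and one of them was that of WTIP, a LIM protein of the AJUBA family whose log2 fold change was 0.06 (adjusted p = 0.875, edgeR). The YAP1 window held it once, at -162, and the LATS2 window once, at 10, counting the start site as 1. Another window, that of AJUBA, a LIM protein that binds LATS kinases, is shown because AJUBA had the second smallest p among the pathway partners described below. Its other window held neither motif, nor did any of the 5 windows of VGLL4, the partner with the smallest p. In WWTR1, GTAAACA stood at -53 of the start site that lies further upstream in the direction of the gene. The other WWTR1 window held neither motif. The stretches are printed 5′ to 3′ on the strand of the gene, with the matched letters in capitals. A match of letters is a description and not evidence that a factor binds there.
CCN2, chr6:131951442-131951561, minus strand: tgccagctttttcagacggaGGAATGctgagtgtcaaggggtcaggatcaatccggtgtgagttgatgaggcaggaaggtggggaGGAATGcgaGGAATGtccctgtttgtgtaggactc
YAP1, chr11:102110265-102110310, plus strand: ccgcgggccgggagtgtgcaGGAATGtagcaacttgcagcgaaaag
LATS2, chr13:21061560-21061589, minus strand: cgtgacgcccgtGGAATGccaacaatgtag
AJUBA, chr14:22976876-22976921, minus strand: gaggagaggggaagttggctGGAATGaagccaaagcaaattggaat
WWTR1, chr3:149703300-149703346, minus strand: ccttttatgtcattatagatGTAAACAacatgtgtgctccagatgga

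Across the series, each library summed to 23843192 to 28791954 expected counts, and 15663 genes were tested. FOXL2 itself was at 9.88, 9.71 and 10.8 CPM (counts scaled to a fixed library size, after TMM normalisation) in the control libraries and at 2.64, 3.31 and 2.36 CPM in the FOXL2 siRNA libraries, a log2 fold change of -1.88 (SE 0.142, adjusted p = 0.00267 by the quasi-likelihood test of edgeR, adjusted after Benjamini and Hochberg). A mean of at least 1 CPM was reached by 7 of 15 granulosa cell markers, among them NR5A1, INHBA, INHBB, FST, AMH and STAR. WT1 and FSHR were at 0 in every library, and GATA4, INHA, AMHR2, CYP19A1 and CYP11A1 were near 0. HSD17B1 was at 0.408 to 1.08 CPM. The granulosa label is thus met in part. The markers of other cell types reached 1 CPM in 4 of 13 cases (KRT7, PTPRC, CD68 and SOX9), and their summed level was 115.7 to 122.7 CPM in the control libraries and 92.96 to 115.9 CPM in the FOXL2 siRNA libraries, with INSL3 at 0. FOXL2 siRNA replicate 2 stood apart on the first principal component (31.2% of the variance), with a score of 40.9 against -17.2 to -0.0247 for the other libraries.

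None of the 10 Hippo genes passed an adjusted p of 0.05 in edgeR's quasi-likelihood test, where 40 of the 15663 genes tested did (0.255%). DESeq2 likewise called none of the 9 to which it gave an adjusted p. Only CCN2 had an unadjusted p under 0.05 in edgeR, among 13.5% of all genes tested. In CPM, every FOXL2 siRNA library lay above every control library for CCN2 alone, as for 9.97% of all genes, and no member showed the opposite order, as 10.6% of all genes did. The log2 fold changes of the 10 genes ran from -0.24 (TEAD2) to 0.32 (CCN1), 7 above and 3 below 0, with a median of 0.10, beside a median of 0.01 and 51.4% above 0 over all genes tested. Their median absolute log2 fold change was 0.15, beside 0.12 over all genes. In such bulk RNA, fewer cells with a transcript and less transcript per cell cannot be told apart.

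**Figure D1:**
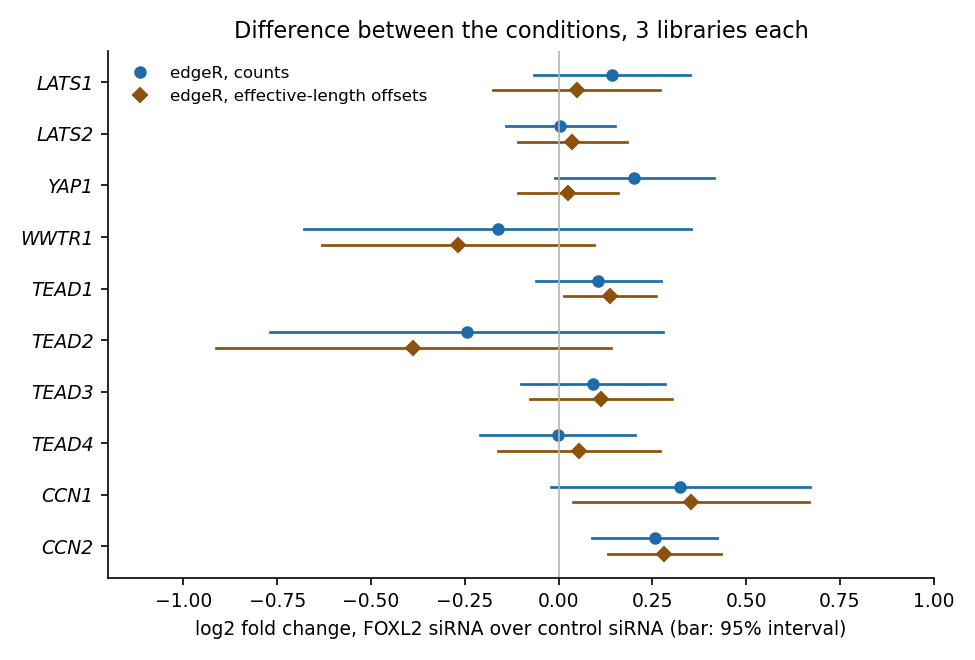
Points show the log2 fold change of each gene, FOXL2 siRNA over control siRNA, and bars its 95% interval, for edgeR on the counts (circles) and for edgeR with offsets for effective length (diamonds). The intervals of CCN2 lie above 0 in both fits, and those of YAP1 centre on 0.20 in the first and on 0.02 in the second.

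Levels between genes were compared in TPM, which is scaled to transcript length. In the control libraries the secreted targets stood highest, with CCN1 at 546.2 ± 86.9 TPM and CCN2 at 435.4 ± 31.6 TPM (mean ± SD, n = 3 throughout). The coactivators followed, YAP1 at 75.4 ± 1.14 TPM and WWTR1 at 46.96 ± 4.07 TPM. TEAD1, at 45.9 ± 1.60 TPM, could not be placed above or below WWTR1, since their difference of 1.02 TPM was smaller than their spread. TEAD4 (19.3 ± 0.608 TPM), TEAD3 (17.3 ± 1.00 TPM) and LATS2 (16.9 ± 0.457 TPM) formed a close group in which TEAD3 and LATS2 overlapped. LATS1 was at 12.8 ± 1.42 TPM and TEAD2 lowest at 1.88 ± 0.0954 TPM. The difference between CCN1 and CCN2, 110.8 TPM, was also below the sum of their SDs, 119 TPM, although their control libraries did not overlap. In the FOXL2 siRNA libraries the order of the means differed only in that TEAD1 (50.6 ± 1.78 TPM) stood above WWTR1 (39.2 ± 10.6 TPM), without overlap. The neighbours that overlapped there were TEAD4 and TEAD3.

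**Figure D2:**
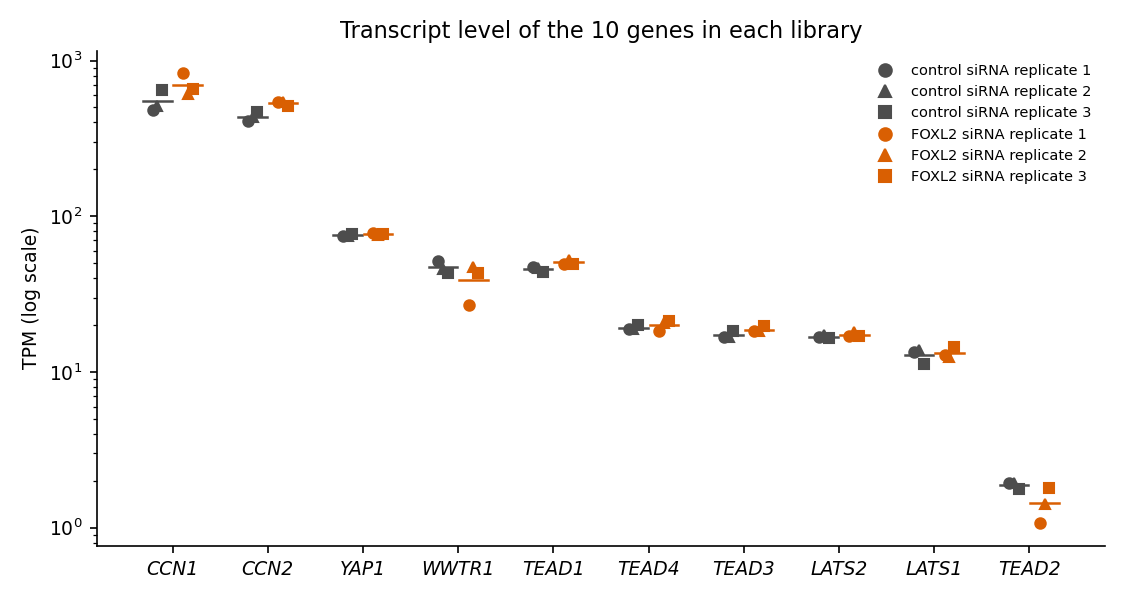
Each symbol is the TPM of a gene in 1 library on a log axis, with control siRNA in grey and FOXL2 siRNA in orange, and each line is the group mean. The genes are ordered by control mean, from CCN1 at 546.2 TPM to TEAD2 at 1.88 TPM.

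LATS1 and LATS2, the kinases that inactivate YAP and TAZ, differed little between the conditions. The LATS1 gene (ENSG00000131023, chr6:149658153-149718256 in GRCh38) was at 41.5, 41.9 and 35.4 CPM in the control libraries and at 39.8, 46.6 and 44.8 CPM with FOXL2 siRNA. The groups overlapped, and the log2 fold change was 0.14 (SE 0.092, adjusted p = 0.533, edgeR). It was 0.05 when corrected for effective length and 0.06 without control replicate 3. LATS2 (ENSG00000150457, chr13:20973032-21061547), itself a known transcriptional target of YAP, was at 58.1, 58.1 and 61.4 CPM against 56.7, 61.7 and 59.9 CPM. Its log2 fold change was 0.01 or less, and the 95% interval of the fold, 0.907 to 1.11, bounds the change that these libraries allow. LATS1 made up 40.4% to 45.9% of the summed TPM of both kinases over the 6 libraries, with overlap between the groups.

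YAP1 (ENSG00000137693, chr11:102110461-102233423), the gene of the main transcriptional effector of the pathway, was at 132, 134.5 and 132 CPM in the control libraries and at 149, 176 and 134 CPM with FOXL2 siRNA. The lowest FOXL2 siRNA library lay within the range of the control libraries, and the highest was replicate 2, the library that stood apart. The log2 fold change of the counts was 0.20 (SE 0.0937), with an adjusted p of 0.388 in edgeR and an unadjusted one of 0.0601. In TPM, however, YAP1 stayed between 74.5 and 77.8 in all 6 libraries, with group means of 75.4 ± 1.14 and 76.8 ± 1.11 TPM (exact permutation p = 0.2, two-sided). CPM and TPM part by construction where the length that RSEM estimates differs between libraries. The effective length of YAP1, averaged over its transcripts as RSEM weighed them, was 3668 nucleotides there and 2496 to 2806 nucleotides in the other libraries. With these lengths as offsets in edgeR, the log2 fold change of YAP1 was 0.02 (SE 0.0594, adjusted p = 0.907).

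**Figure D3:**
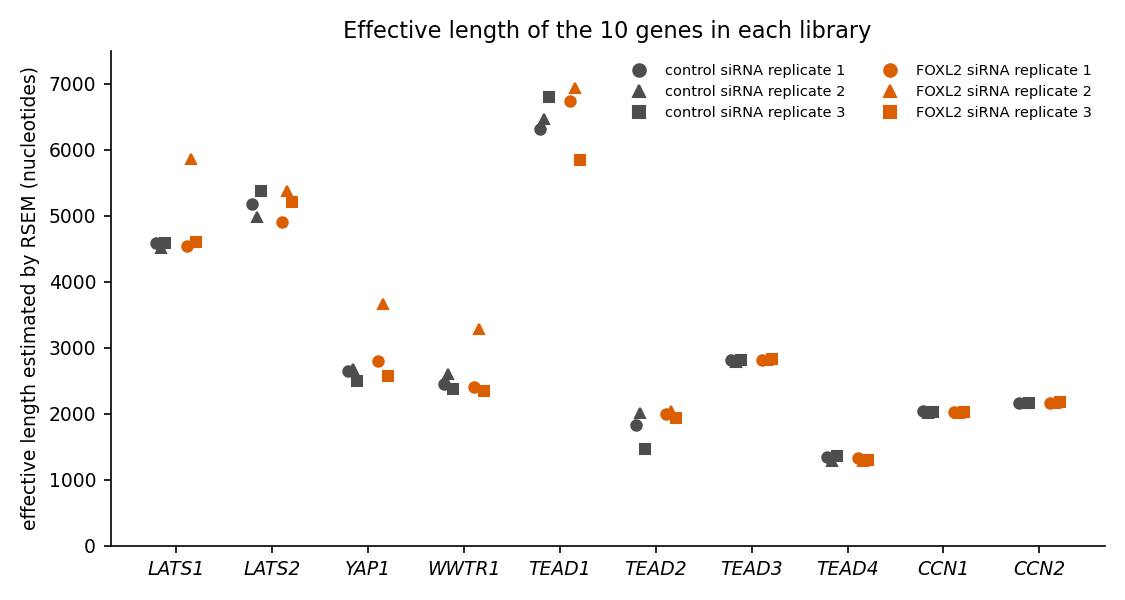
Each symbol is the effective length, in nucleotides, that RSEM estimated for a gene in 1 library. FOXL2 siRNA replicate 2 (orange triangle) is highest for LATS1 (5866), YAP1 (3668) and WWTR1 (3287), whereas CCN1, CCN2 and TEAD3 hardly vary.

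The same library was set apart in length for LATS1 (5866 nucleotides against 4517 to 4598) and WWTR1 (3287 against 2347 to 2595). Over 15662 genes, 9.51% had an effective length at least 1.25 times the control mean in FOXL2 siRNA replicate 2, compared with 1.28% to 2.81% in the other libraries. The part of these lengths in the differences between the groups was not tested beyond the fits with offsets. For CCN1, CCN2 and TEAD3 its length was within 1% of the control mean.

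WWTR1 (ENSG00000018408, chr3:149517235-149736714), which encodes TAZ, the paralogue of YAP, varied most among the abundant members. It was at 84.9, 79.95 and 71.0 CPM in the control libraries and at 44.5, 97.9 and 68.7 CPM with FOXL2 siRNA, so that the lowest and the highest of all 6 values were both from FOXL2 siRNA pools. The log2 fold change was -0.16 (SE 0.228, adjusted p = 0.797, edgeR), and the interval of the fold ran from 0.625 to 1.28. Corrected for effective length it was -0.27 (SE 0.162, adjusted p = 0.526, edgeR), and the mean TPM was 83.4% of the control mean. Leaving out FOXL2 siRNA replicate 1 turned it to 0.08, and leaving out replicate 2 moved it to -0.48 (adjusted p = 0.138, edgeR). The ratio of YAP1 to WWTR1 in TPM was 1.45, 1.63 and 1.76 in the control libraries and 2.87, 1.61 and 1.77 with FOXL2 siRNA. FOXL2 siRNA replicate 1 thus stood well above the control libraries, while the other FOXL2 siRNA libraries lay close to their range. The annotated antisense gene WWTR1-AS1 had 7 to 33 counts per library, beside WWTR1 counts of 1215 to 2370. No source used here gives the strand setting of the counting, so a part of antisense reads in the WWTR1 counts was not tested.

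**Figure D4:**
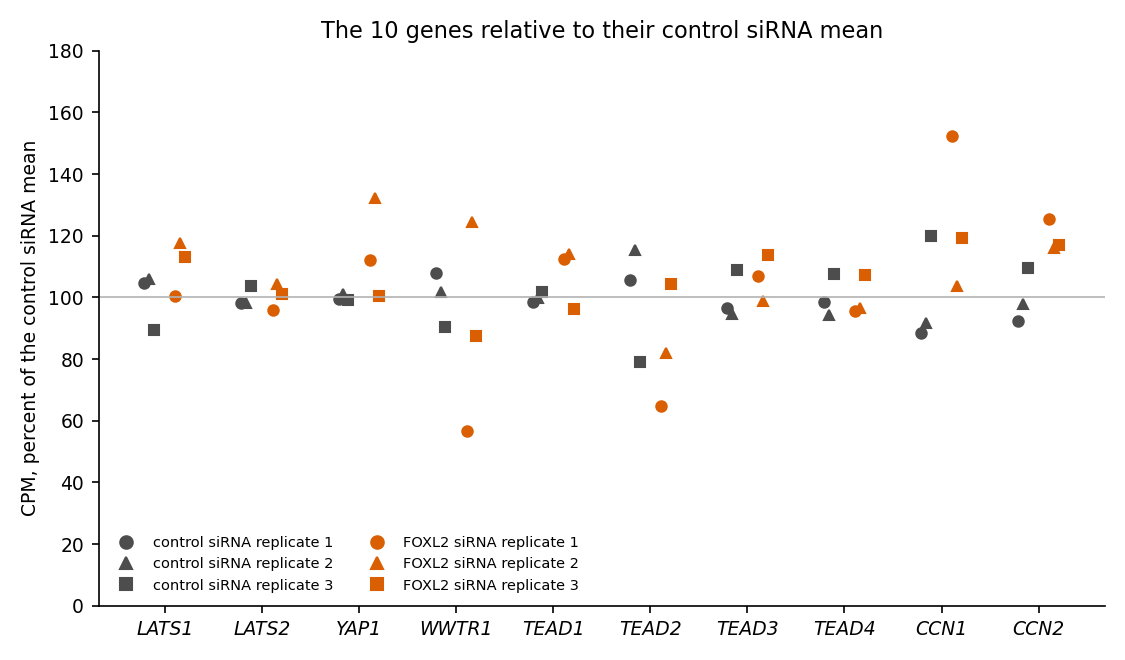
Each symbol is the TMM-normalised CPM of a gene in 1 library as a percentage of that gene's control siRNA mean, on an axis from 0. The FOXL2 siRNA libraries of CCN2 lie at 116% to 125%, above the 3 control libraries, while those of WWTR1 spread from 56.6% to 125%.

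Among the TEAD factors, which carry YAP and TAZ to DNA, TEAD1 was the main form, with 52.3% to 56.8% of their summed TPM in every library. TEAD1 (ENSG00000187079, chr11:12674591-12944483) was at 200, 203 and 207 CPM in the control libraries and at 228, 232 and 195.5 CPM with FOXL2 siRNA, a log2 fold change of 0.11 (SE 0.0738, adjusted p = 0.563, edgeR). The groups overlapped in CPM because of FOXL2 siRNA replicate 3. In TPM they did not, with 44.1 to 47.0 TPM in the control libraries and 49.6 to 52.7 TPM with FOXL2 siRNA. The exact permutation p was 0.1, two-sided, the smallest that 3 libraries against 3 allow. The effective length of TEAD1 was 5849 nucleotides in FOXL2 siRNA replicate 3 and 6313 to 6939 nucleotides in the other libraries. The share of all genes that did not overlap in TPM was not computed. Correcting the counts for effective length gave a log2 fold change of 0.14 (SE 0.0552), with an unadjusted p of 0.0329 in edgeR that became 0.348 after adjustment. The summed TPM of the 4 TEAD genes was 84.3 to 84.6 in the control libraries and 87.4, 92.9 and 92.3 with FOXL2 siRNA. This sum did not overlap between the groups, but TEAD1 made up most of it. TEAD2, TEAD3 and TEAD4 each overlapped between the groups in TPM.

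For TEAD3 and TEAD4, both widely expressed paralogues of TEAD1, the groups overlapped in CPM as in TPM. TEAD3 (ENSG00000007866, chr6:35473597-35497076) was at 31.1 to 35.8 CPM against 32.6 to 37.4 CPM, a log2 fold change of 0.09 (SE 0.0852, adjusted p = 0.672, edgeR). TEAD4 (ENSG00000197905, chr12:2959330-3040673) was at 16.4 to 18.7 CPM in the control libraries and at 16.7 to 18.7 CPM with FOXL2 siRNA, with a fold interval of 0.866 to 1.15. Both groups covered nearly the same range for TEAD4. TEAD2 (ENSG00000074219, chr19:49340595-49362457), the least abundant, had 40 to 68 counts per library and a log2 fold change of -0.24 (SE 0.232, adjusted p = 0.678, edgeR). Its libraries ran from 1.79 to 2.61 CPM against 1.46 to 2.36 CPM, and a change of the size seen in the other TEAD genes was not detectable at this depth.

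CCN1 and CCN2 encode secreted matricellular proteins and are the targets most often read as a measure of YAP and TAZ activity. CCN2 (ENSG00000118523, chr6:131948176-131951373), whose promoter holds the 3 GGAATG matches shown above, was at 592, 627 and 700.5 CPM in the control libraries and at 801, 742 and 749 CPM with FOXL2 siRNA. Every FOXL2 siRNA library lay above every control library. The log2 fold change was 0.26 (SE 0.0737), a fold of 1.06 to 1.34 in its 95% interval, with an unadjusted p of 0.00692 and an adjusted p of 0.201 in edgeR's quasi-likelihood test. In TPM it was at 406, 432 and 469 against 541, 540.0 and 511 (exact permutation p = 0.1, two-sided). DESeq2 gave an adjusted p of 0.0628. With effective lengths as offsets DESeq2 called CCN2 at a log2 fold change of 0.28 (adjusted p = 0.0145), a setting in which 3.22% of 11108 genes were called. The adjusted p of CCN2 ran from 0.0145 to 0.581 over all alternatives and was below 0.05 in that one alone. The direction was the same throughout, at 0.20 to 0.32 on the log2 scale.

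CCN1 (ENSG00000142871, chr1:85580761-85583962) was at 662, 688 and 898.5 CPM in the control libraries and at 1143, 778 and 894 CPM with FOXL2 siRNA. Control replicate 3 lay above 2 of the 3 FOXL2 siRNA libraries, and the highest value was that of FOXL2 siRNA replicate 1. The log2 fold change was 0.32 (SE 0.153), with an adjusted p of 0.392 in edgeR, an unadjusted one of 0.0626 and a fold interval of 0.986 to 1.59. With length offsets it was 0.35 (SE 0.141), with an unadjusted p of 0.0319 in edgeR that became 0.346 after adjustment. Without FOXL2 siRNA replicate 1 the log2 fold change of the counts was 0.16, and without control replicate 3 it was 0.47. The log2 CPM of CCN1 and CCN2 had a Pearson r of 0.88 over the 6 libraries, given as a description, since all genes of a library share its handling. By r, CCN2 ranked 214 for CCN1 and CCN1 ranked 209 for CCN2, among 9469 genes with a mean of at least 10 CPM. The genes whose log2 CPM followed CCN1 most closely were STAT2, PARL and SLC36A1 (r of 0.99 to 1.00). Those closest to CCN2 were DOCK2, CKS1B and DUSP1 (r of 0.99). These are the highest of 9469 values, each over only 6 libraries.

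Of the other CCN genes, whose products share the modular structure of CCN1 and CCN2, none was called. CCN3 was at 13.1 to 18.5 CPM in the control libraries and 11.2 to 16.8 CPM with FOXL2 siRNA, CCN4 at 2.95 to 4.20 CPM against 2.16 to 4.21 CPM, and CCN5 below 1 CPM in every library. Their log2 fold changes were -0.07, -0.26 and -0.47 in edgeR (adjusted p = 0.897, 0.679 and 0.631), and CCN6 had no count. The groups overlapped for CCN3, CCN4 and CCN5.

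The wider pathway was described over 52 further genes, of which 49 were tested: upstream kinases and scaffolds, the STRIPAK phosphatase complex that dephosphorylates MST kinases, and partners of YAP and TEAD. edgeR called none. An unadjusted p under 0.05 was found for 9 of the 49, 4 higher and 5 lower, beside 13.5% of all genes tested. Of their log2 fold changes, 30 lay above 0 and 19 below, beside 51.4% above 0 over all genes. The median was 0.06, and it was 0.01 with length offsets in edgeR and 0.03 without FOXL2 siRNA replicate 2. Every FOXL2 siRNA library lay above every control library for 6 of them and below for 5, beside the 9.97% and 10.6% of all genes. DESeq2, which called 2.86% of 11714 genes, called 3 of 48: MAP4K4 lower, AJUBA and VGLL4 higher.

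Among the 24 upstream regulators tested, the median log2 fold change was -0.02, with 1 gene higher and 5 lower at an unadjusted p under 0.05, beside 13.5% of all genes tested. MAP4K4, a kinase that activates LATS alongside the MST kinases, had the smallest p. It was at 306, 300.0 and 304 CPM in the control libraries and at 224, 249 and 269.6 CPM with FOXL2 siRNA, without overlap (log2 fold change -0.29, SE 0.0731, adjusted p = 0.152 in edgeR and 0.026 in DESeq2). TAOK2, a kinase that acts on MST, was at 85.2 to 88.6 CPM against 71.7 to 79.7 CPM (log2 fold change -0.17, adjusted p = 0.311, edgeR). STK38L, the LATS-related kinase NDR2, was at 16.9 to 18.5 CPM against 18.7, 34.7 and 23.1 CPM, and its log2 fold change of 0.51 was 0.11 with effective lengths as offsets. TAOK3, named after its values were seen, had the lowest log2 fold change of the list, -0.60 (adjusted p = 0.326, edgeR), at 42.7 to 44.5 CPM in the control libraries and at 17.2, 40.6 and 28.79 CPM with FOXL2 siRNA. In CPM, the groups did not overlap for 1 gene higher and 5 lower of the 24, beside 9.97% and 10.6% of all genes. The lower ones included RASSF1 (68.8 to 73.7 against 62.4 to 65.4 CPM) and FAT4 (57.2 to 62.4 against 49.85 to 56.6 CPM). Both are named after their values were seen. The kinases MST1 and MST2 (STK4 and STK3), SAV1, NF2 and both MOB1 genes each overlapped between the groups. These genes are also outside the rule by which genes were named.

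The 16 STRIPAK genes had no unadjusted p under 0.05, beside 13.5% of all genes tested. Their median log2 fold change was 0.06, which was -0.01 with effective lengths as offsets in edgeR. Their smallest p-values belonged to MOB4 (31.6 ± 2.95 against 38.8 ± 8.03 CPM, log2 fold change 0.29, adjusted p = 0.401, edgeR), STK26 and STRIP2 (log2 fold changes 0.22 and 0.13). With length offsets STK26 was at -0.02 on the same scale, and without FOXL2 siRNA replicate 2 MOB4, STK26 and STRIP2 were at 0.13, 0.11 and 0.07. Of the YAP and TEAD partners, 9 were tested, and 8 had a log2 fold change above 0, beside 51.4% of all genes tested. Their median was 0.12, beside 0.01 over all genes. An unadjusted p under 0.05 was found for 3 of the 9, all higher, beside 13.5% of all genes. Every FOXL2 siRNA library lay above every control library for 4 and below for 0, beside 9.97% and 10.6% of all genes. VGLL4, which competes with YAP for TEAD, was at 29.9, 27.5 and 27.4 CPM in the control libraries and at 36.2, 39.8 and 39.0 CPM with FOXL2 siRNA (log2 fold change 0.44, SE 0.0744, adjusted p = 0.054 in edgeR and 0.00124 in DESeq2). AJUBA was at 92.9, 93.7 and 102.5 CPM against 124, 119.5 and 121 CPM (log2 fold change 0.34, SE 0.0626, adjusted p = 0.0881 in edgeR and 0.00212 in DESeq2). Neither overlapped between the groups. With effective lengths as offsets, AJUBA passed the threshold in edgeR (log2 fold change 0.44, adjusted p = 0.0454), and the VGLL4 value was 0.34 (adjusted p = 0.238). VGLL4 passed in edgeR with a mean of at least 50 counts (adjusted p = 0.0484) and without FOXL2 siRNA replicate 1 (adjusted p = 0.0434). Without any one control replicate VGLL4 did not pass (adjusted p = 0.201 to 0.352, edgeR). LIMD1, a LIM protein related to AJUBA, was at 24.4 to 28.78 CPM against 30.3 to 31.5 CPM (log2 fold change 0.19, adjusted p = 0.36, edgeR).

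A published signature of YAP and TAZ targets held 19 genes outside the 10, of which 18 were tested and none was called by edgeR. AMOTL2 and PTPN14 are also among the partners. Of the 18, 10 had log2 fold changes above 0 and 8 below, beside 51.4% above 0 over all genes. Their median of 0.03 turned to -0.05 without FOXL2 siRNA replicate 2. An unadjusted p under 0.05 was found for 1 gene in the higher direction and 5 in the lower, 6 of 18 beside 13.5% of all genes tested. DESeq2 called 1 higher and 2 lower, 3 of 18 beside its 2.86% of all genes. NT5E, the ecto-nucleotidase CD73, was at 1004, 1014 and 995 CPM in the control libraries and at 652, 799.6 and 728 CPM with FOXL2 siRNA. No libraries overlapped, and the log2 fold change was -0.47 (SE 0.0767, adjusted p = 0.051 in edgeR and 2.17e-05 in DESeq2). NT5E passed in edgeR with length offsets (-0.51, adjusted p = 0.028), without a filter on low counts and with a mean of at least 50 counts. It also passed there without FOXL2 siRNA replicate 1 or 2 (adjusted p = 0.0451 and 0.00214). It did not pass in edgeR without replicate 3, without any one control replicate or with the replicate block (adjusted p = 0.102 to 0.315). CCDC80, an extracellular matrix protein, was at 502, 512 and 531 CPM against 416, 439 and 447 CPM (log2 fold change -0.25, SE 0.057, adjusted p = 0.124 in edgeR and 0.0188 in DESeq2). NUAK2, a kinase related to AMPK, went the other way, at 9.72, 10.2 and 10.5 CPM against 16.8, 13.4 and 13.7 CPM (log2 fold change 0.52, SE 0.113, adjusted p = 0.108 in edgeR and 0.0172 in DESeq2). The groups of CCDC80 and NUAK2 did not overlap either. ANKRD1, a cardiac ankyrin repeat protein named after its values were seen, overlapped between the groups at 19.9 to 27.6 against 19.95 to 32.1 CPM. Its log2 fold change was 0.16 (adjusted p = 0.721, edgeR). The promoter window of ANKRD1 held GGAATG 2 times, as did that of NUAK2, while those of NT5E and CCDC80 held it 0 times. The share of all windows with 2 matches was not computed, and a link between matches and direction was not tested.

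Leaving out FOXL2 siRNA replicate 2, the library that stood apart, raised the share of genes called by edgeR to 3.61% of 16025. None of the 10 Hippo genes was among them, and CCN2 was at 0.27 (adjusted p = 0.0763, edgeR). In that setting 4 of the 49 pathway genes were called, TAOK3 and MAP4K5 lower and AJUBA and VGLL4 higher. Of the signature, 4 of 18 were called, IGFBP3, CCDC80 and NT5E lower and NUAK2 higher. MAP4K5 and IGFBP3 are named here after their values were seen.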

How the data were processed

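RNA-seq libraries of KGN cells (3 with control siRNA, 3 with FOXL2 siRNA) were grouped by the labels. The authors' pipeline, per the submitters' processing notes, used STAR 2.7.6a, Picard 2.8.1, RSEM 1.3.1, R 3.6.3 and DESeq2 1.26.0. The only build named there is GRCm38, a mouse assembly, while the identifiers are human, so the human build and annotation are not stated in any source used here. The deposited tables hold RSEM's expected count, an estimated count that is not normalised, and the authors' TPM, scaled by RSEM to library and transcript length. Deposited FPKM values were not used. Symbols were looked up by identifier (60401 of 60671 identifiers had an entry), and gene coordinates were taken from GENCODE v29. Its annotation was not the one of the deposited tables. It has 2 transcripts for CCN1 against 6 in the tables, 7 against 6 for TEAD1 and 2 against 1 for FOXL2. The numbers were equal for the other members.

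Expected counts were rounded, filtered by filterByExpr, normalised by TMM and tested over all genes with the quasi-likelihood test of edgeR 4.0.16 in R 4.3.3, p-values being adjusted after Benjamini and Hochberg and called below 0.05. The test was also run on simulated counts in which no library stood apart and no length changed. That run therefore does not cover a library such as FOXL2 siRNA replicate 2. Errors are the SD of 3 libraries. Single values were compared with two-sided exact permutation tests, whose p cannot be below 0.1. The depth of 23843192 to 28791954 counts per library sets the precision of each gene's count. Named genes were the 10, FOXL2, the other CCN genes, the 3 genes of each list with the smallest edgeR p, and the 3 genes most correlated with CCN1 or CCN2. The genes, lists and tests were chosen with earlier results of these data known. Alternatives were DESeq2 1.42.0, limma 3.58.1 (voom, and log2(TPM + 1) or log2(TPM + 0.1)), DESeq2 size factors, effective lengths as offsets, no filter, a mean of at least 50 counts, unrounded counts, the older quasi-dispersion (added after seeing the data), a replicate block, and each library left out. Python 3.11.15 and matplotlib 3.10.9 drew the plots.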

Additional observations from a re-analysis of the deposited data

How the results depend on the processing

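The call of FOXL2 and its direction were kept in all 19 alternatives (log2 fold changes -2.03 to -1.36). Among the 10 Hippo genes, 1 was called (CCN2) by DESeq2 with effective lengths as offsets and 0 in every other alternative, including each library left out (0). The number with an unadjusted p under 0.05 was 1 and became 2 with DESeq2, with the block in edgeR and with limma on log2(TPM + 0.1), 3 with either tool with length offsets, with limma on log2(TPM + 1) and without a filter, and 1 to 3 with a library left out. Their median log2 fold change of 0.10 fell to 0.05 with length offsets (0.0499 in DESeq2, 0.0512 in edgeR) and in limma on TPM (0.0539 and 0.051), and was 0.0706 to 0.0904 with a library left out. Calls among the pathway genes (0) became 3 with DESeq2, 2 with DESeq2 and length offsets, 1 with edgeR and length offsets, 1 with a mean of at least 50 counts, and 0 to 4 with a library left out. Calls in the target signature (0) became 3, 4, 1 and 1 in the same settings, 1 without a filter, and 0 to 4 with a library left out. Over all genes, 40 calls became 335 with DESeq2, 358 with DESeq2 and length offsets, 13 in both limma fits on TPM, 64 with a mean of at least 50 counts and 70 without a filter. With a library left out they were 2 to 579: 2, 3 and 2 without control replicates 1, 2 and 3, and 105, 579 and 9 without FOXL2 siRNA replicates 1, 2 and 3. The cause was not tested.

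Directions turned in 22 cases, none of them called. With a library left out, LATS2 ran from -0.0269 to 0.0372, WWTR1 from -0.478 to 0.0811, TEAD4 from -0.0621 to 0.0511 and CCN3 from -0.1832 to 0.0948. TEAD4 was at 0.05 (0.0533 in DESeq2, 0.0542 in edgeR) with length offsets, and 0.0563 and 0.054 in limma on TPM. STK26 was at -0.0176 and -0.0164 with length offsets and -0.0119 and -0.0112 in limma on TPM. CCN4 was at 0.1098 and 0.1308 with length offsets and 0.1108 and 0.0636 in limma on TPM.

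The control titles carry the same pool numbers as the FOXL2 siRNA titles. The labels do not say whether a number marks a shared day or plate. Deviations from the group means had an r of -0.0301, 0.0473 and 0.0478 between libraries with the same number. Between libraries with different numbers r ran from -0.106 to 0.083. With 3 libraries per group, these values cannot show whether the numbers pair the libraries. With the replicate block, edgeR called 11 genes and DESeq2 175, none of the 10, and DESeq2 called 3 pathway genes and 2 of the signature.

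For TEAD2, with 40 to 68 counts, DESeq2 gave no adjusted p. RSEM's shared reads make the split of counts between transcripts, and so the effective lengths, estimates.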
